A study of Mus musculus with 9 samples.

Results

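Hearts of C57BL/6 mice given angiotensin II were compared with hearts of C57BL/6 mice given PBS, a salt buffer, across all genes of a deposited table of RNA sequencing counts. The groups were taken from the treatment label, and they cover 6 of the 9 libraries of the series. AngII hearts gave 3 libraries, titled WC_3 (replicate 1), WC_182 (replicate 2) and WA_132 (replicate 3). Ctrl hearts gave 3 libraries, titled WC_184 (replicate 1), WA_130 (replicate 2) and WA_127 (replicate 3). The other 3 libraries carry the label Kmo+Ang II. They entered here only the choice of genes tested, the scaling between libraries and the estimate of the spread. JOSD2, an enzyme that removes ubiquitin, and SERCA2a, which pumps calcium into the sarcoplasmic reticulum, are named in the series title. The labels give no dose, duration, route, age or sex, no genetic alteration for these 6 libraries. Whether each library is a different animal is not stated either. The p-values here therefore set a difference only against the spread between these libraries, and that spread may be technical.

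The letters WC and WA at the start of the titles are not explained, and they cross the treatment labels. WC marks AngII replicates 1 and 2 and Ctrl replicate 1, and WA marks AngII replicate 3 and Ctrl replicates 2 and 3. Every library was kept in the group its label gives. Several genes that mark hypertrophy, described below, followed the prefix and not the label, and whether AngII replicate 3 and Ctrl replicate 1 are labelled as intended cannot be told from these data, so every AngII minus Ctrl value holds for the labels as given. For some hypertrophy genes and gene lists, a value without AngII replicate 3 or without Ctrl replicate 1 is given beside the full value. For some genes and lists, differences are also given within each prefix. There the WC difference sets 2 AngII libraries against 1 Ctrl library, and the WA difference sets 1 AngII library against 2 Ctrl libraries.

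Angiotensin II is the effector peptide of the renin-angiotensin system. It acts mainly through the AT1 receptor, a G protein-coupled receptor that raises intracellular calcium and constricts blood vessels. Infused into mice, it raises blood pressure and is widely used to produce cardiac hypertrophy and fibrosis, in which heart muscle commonly expresses natriuretic peptides, skeletal alpha-actin and beta myosin heavy chain at higher levels and fibroblasts lay down collagen.

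The libraries held 62404546, 56827533 and 64780566 counts in AngII hearts and 63974486, 61569672 and 68297638 counts in Ctrl hearts, and 19091 of 55401 genes had enough counts to be tested. The label heart matched the defining markers. Tnnt2, which encodes cardiac troponin T, had 365335, 319783 and 477744 counts in AngII libraries and 283787, 272698 and 491731 in Ctrl libraries. Although the extraction protocol mentions adipose tissue, Ucp1, which marks brown fat, had 7, 0 and 0 counts in AngII libraries and 4, 0 and 0 in Ctrl libraries, and Adipoq, which marks fat cells, had at most 17 counts in any library. Sftpc, the lung surfactant protein C gene, had 254 counts in AngII replicate 1, 242 in Ctrl replicate 3 and 0 in the other 4 libraries. The atrial genes Myl7 and Sln stood at 47.7 and 35.0 CPM (counts scaled to the TMM library size) in Ctrl replicate 2 and at or below 0.567 CPM in the other 5 libraries, so Ctrl replicate 2 stood apart in atrial markers.

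On the first principal component of log2 CPM, which held 37.5% of the variance, the AngII libraries lay at -54.2, -52.9 and 21.5 and the Ctrl libraries at -50.6, 72.8 and 63.4. The 3 WC libraries lay on one side and the 3 WA libraries on the other, whatever their treatment label.

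**Figure D1:**
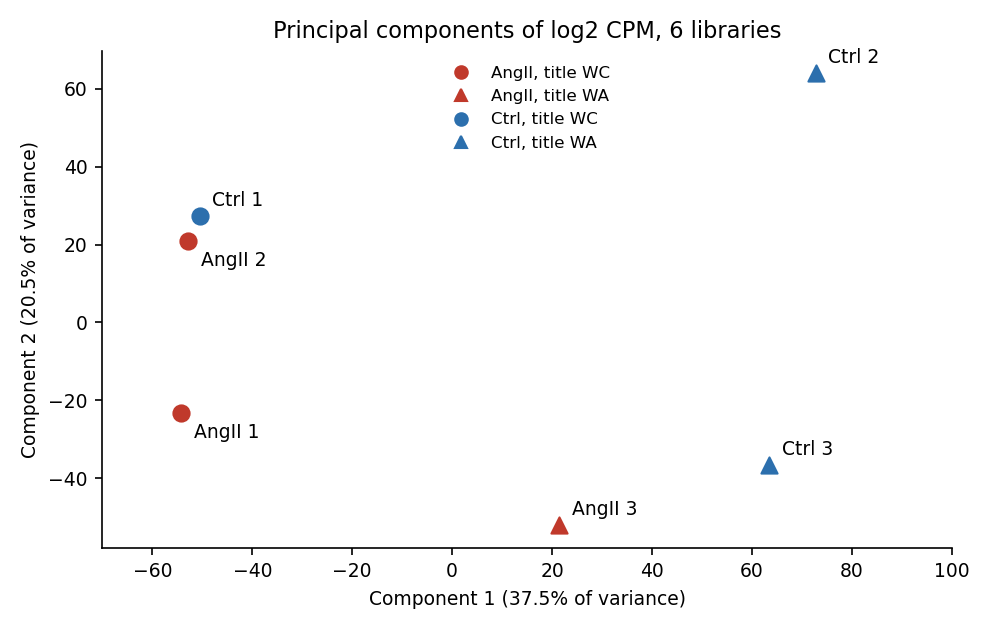
First 2 principal components of log2 CPM in the 6 libraries, in arbitrary units, with colour for the treatment label and shape for the title prefix. On component 1 (37.5% of the variance) the WC libraries lie between -54.2 and -50.6 and the WA libraries between 21.5 and 72.8.

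No gene differed between AngII and Ctrl hearts at an edgeR adjusted p under 0.05. The lowest adjusted p over all genes was 0.890. The threshold was met by 0% of the 19091 genes. At an unadjusted p under 0.05 there were 503 genes higher (2.63%) and 500 genes lower (2.62%) in AngII hearts. All 3 AngII libraries lay above all 3 Ctrl libraries in 1229 genes (6.44%) and below them in 1096 (5.74%). The log2 difference was above 0 in 52% of the genes in the fit of 9 libraries, in 49.4% within WC and in 52.9% within WA. DESeq2 called 2 genes and limma-voom called 0, and the genes whose unadjusted p lay under 0.05 numbered 1331 with DESeq2 and 1000 with limma-voom. With the title prefix as a covariate, which used only these 6 libraries, 0 of 18111 genes passed (0%), the smallest adjusted p was 0.0594, and at an unadjusted p under 0.05 there were 868 genes higher (4.79%) and 790 lower (4.36%) in AngII hearts. The common dispersion, a measure of the spread between libraries of a group, was 0.0809 with the covariate and 0.185 in the fit of 9 libraries. The fits differ in their libraries as well as in the covariate. An edgeR fit of these 6 libraries without the covariate called 0 of 18111 genes, with a smallest adjusted p of 0.204. There 1258 genes had an unadjusted p under 0.05, against 1003 in the fit of 9 libraries and 1658 with the covariate. For the common dispersion, the part of each was not tested. All differences below are therefore measured values that did not pass the test, and the adjusted p over all genes tested in the fit of 9 libraries is 0.890 or more for every gene described.

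Transcripts of the mitochondrial genome, which encodes 13 protein subunits of the respiratory chain and ATP synthase, took a lower share of counts in every AngII library. Mitochondrially encoded genes took 32.0%, 39.5% and 30.3% of counts in AngII libraries and 48.3%, 52.6% and 43.4% in Ctrl libraries. The mean was 33.9 ± 4.87% in AngII hearts and 48.1 ± 4.62% in Ctrl hearts (SD, n = 3 each), a difference of -14.1 percentage points (p = 0.1 in a two-sided exact permutation test, which cannot go lower with 3 libraries in each group, and 0.2 after adjustment for the 2 shares tested). Leaving out 1 library at a time gave -16.9 to -11.9. Of the 13 protein genes, 13 had a lower mean in AngII hearts, 12 had every AngII library below every Ctrl library (5.74% of all genes tested did so) and 9 had an unadjusted edgeR p under 0.05 (2.62% of all genes). Their median log2 difference was -1.36, against 0.02 over all genes tested, and was -1.10 within WC and -1.63 within WA.

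mt-Atp8, which encodes a subunit of ATP synthase, had 1951, 4365 and 1864 CPM in AngII libraries and 7619.9, 14236 and 7716 CPM in Ctrl libraries. Every AngII library lay below every Ctrl library. The log2 difference was -1.85 ± 0.63 (SE), with -1.38 within WC and -2.49 within WA. mt-Nd4, a subunit of respiratory complex I, had 16546, 31794 and 20018 CPM in AngII libraries and 55671, 90738 and 49706 CPM in Ctrl libraries, again without overlap (log2 difference -1.52 ± 0.53). The exception was mt-Nd3, another complex I subunit, with 4243, 3753 and 3732 CPM in AngII libraries and 5712, 4798 and 3852 CPM in Ctrl libraries. Its groups overlapped, and its log2 difference was -0.29 ± 0.34 (edgeR adjusted p = 0.934). The mitochondrial proline transfer RNA gene mt-Tp had 47.3, 56.6 and 54.5 CPM in AngII libraries and 98.8, 171 and 99.4 CPM in Ctrl libraries (log2 difference -1.22 ± 0.28).

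**Figure D2:**
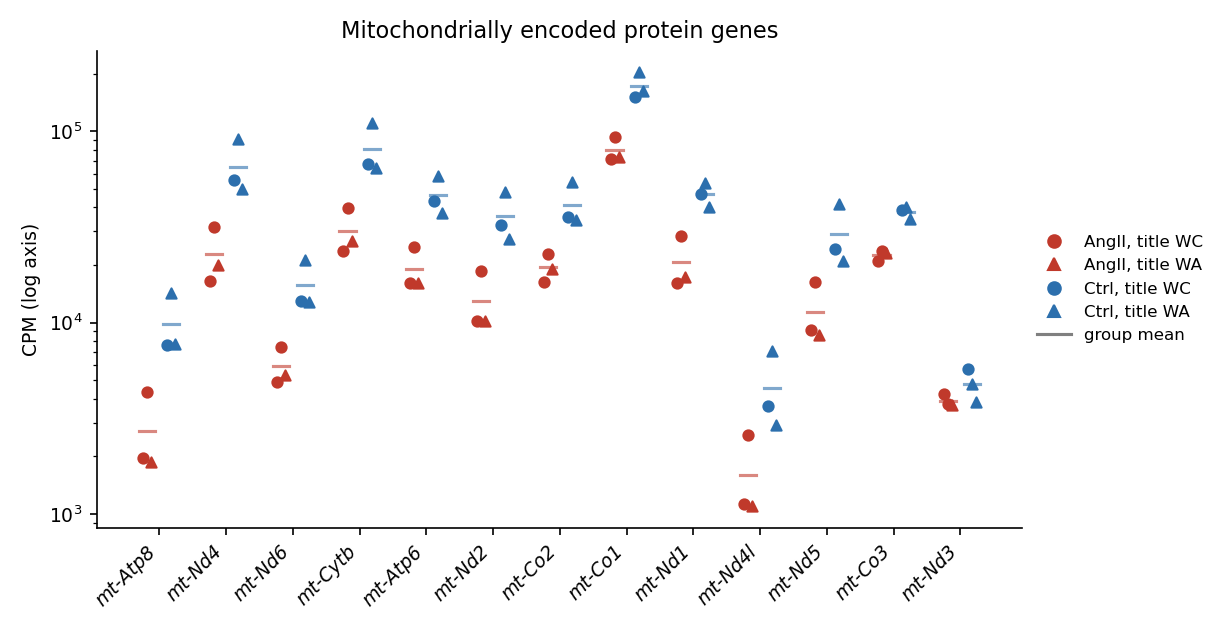
CPM of the 13 mitochondrially encoded protein genes in each library on a log axis, with a line at each group mean. The AngII points lie below the Ctrl points in 12 genes, and those of mt-Nd3 overlap.

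These values are shared with copies in the nuclear genome. Among the pseudogenes with at least 100000 counts, 7 on chromosome 1 carry sequence of at least 98.8% identity to mitochondrial genes, and Gm10925, identical to mt-Atp6 over 678 bases, took 49.9%, 50.3% and 50.0% of the counts of that pair in AngII libraries and 50.0%, 49.7% and 49.9% in Ctrl libraries. The other pairs are Gm28661 with mt-Co2, Gm28437 with mt-Co3, Gm29216 with mt-Co1, Gm28439 with mt-Nd4, Gm28438 with mt-Nd3 and Gm10222 with mt-Nd4l. Mitochondrial genes and these copies together took 43.0%, 52.1% and 40.8% of counts in AngII libraries and 63.4%, 68.0% and 56.1% in Ctrl libraries. The mean was 45.3 ± 5.98% in AngII hearts and 62.5 ± 6.01% in Ctrl hearts (SD, n = 3 each), a difference of -17.2 percentage points (two-sided exact permutation p = 0.1). With the counts of each copy added to its mitochondrial gene the list median stayed at -1.36.

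The large mitochondrial share also bears on the scale of every other gene. When total counts were the only scaling, the median log2 difference of all genes tested was 0.67, against 0.02 with TMM, so all values below are relative to the typical gene and not to total counts. Of the 48 gene lists examined, 35 had a median below 0 with TMM and 2 with total counts, which were the mitochondrially encoded genes (-0.68) and the hypertrophy genes (-0.35). AngII libraries also held more genes with at least 1 count, at 23876, 23356 and 23220, against 22606, 21236 and 22007 in Ctrl libraries. In bulk tissue, fewer cells of a type and less RNA per cell cannot be told apart.

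Of 39 nuclear genes of the respiratory chain, 13 had a higher and 26 a lower fitted value in AngII hearts, with a median log2 difference of -0.16. It was 0.05 within WC and 0.20 within WA, -0.48 without AngII replicate 3, 0.098 without AngII replicate 2 and 0.084 without Ctrl replicate 3. In the fit of 9 libraries 0 in either direction had an unadjusted edgeR p under 0.05. With the prefix covariate the median was 0.16, with 25 genes higher and 14 lower. There 4 higher genes (4.79% of all genes) and 2 lower genes (4.36% of all genes) had an unadjusted edgeR p under 0.05. In mean log2 level, every WA library lay above every WC library for this list. Cox20, not among these 39, is an assembly factor of cytochrome c oxidase and had 7.58, 11.4 and 12.8 CPM in AngII libraries and 19.6, 34.8 and 37.0 CPM in Ctrl libraries. Every AngII library lay below every Ctrl library, with a log2 difference of -1.53 ± 0.32, an unadjusted edgeR p of 0.000672, and an edgeR adjusted p of 0.421 with the prefix covariate. Cox20 overlaps Hnrnpu on the opposite strand in the annotation used for neighbours, and Hnrnpu had a log2 difference of 0.00 ± 0.26. Hnrnpu held between 8656 and 17126 counts per library and Cox20 between 644 and 2128. With so many more counts, the Hnrnpu value cannot show how reads of the pair were shared, and the part of the overlap was not tested. Cox6a2, the muscle form of another oxidase subunit, had 697, 1064 and 875 CPM in AngII libraries and 1351, 1512 and 1492 CPM in Ctrl libraries (log2 difference -0.72 ± 0.34). Ndufa2, of complex I, had 174, 67.3 and 183 CPM in AngII libraries and 74.6, 73.1 and 73.6 CPM in Ctrl libraries, with AngII replicate 2 below all Ctrl libraries.

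Genes that commonly mark hypertrophic heart muscle had lower fitted values in the hearts labelled AngII. All 21 hypertrophy and fetal-programme genes had a lower fitted value in AngII hearts, with a median log2 difference of -1.01, but 1 had an unadjusted p under 0.05 (2.62% of all genes) and 1 had non-overlapping groups (5.74% of all genes). With the prefix covariate 5 were higher and 16 lower, and 5 lower had an unadjusted p under 0.05 (4.36% of all genes). The median was then -0.35, with -0.26 within WC and -0.51 within WA. It was -1.85 without AngII replicate 3, -1.51 without Ctrl replicate 1, -0.59 without AngII replicate 1 and -0.60 without Ctrl replicate 2, the library with high atrial markers.

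Nppa, which encodes atrial natriuretic peptide, had 107, 48.0 and 808 CPM in AngII libraries and 114, 603 and 1222 CPM in Ctrl libraries. The WA libraries were the high ones in both groups, and the groups overlapped (log2 difference -1.01 ± 1.14, edgeR adjusted p = 0.934). The difference was -3.06 without AngII replicate 3. Leaving out Ctrl replicate 1 gave -1.51, and leaving out Ctrl replicate 3 gave -0.16. Nppb, which encodes brain natriuretic peptide, had 35.9, 20.6 and 286 CPM in AngII libraries and 53.3, 474 and 350.3 CPM in Ctrl libraries (log2 difference -1.36 ± 1.23, and -3.37 without AngII replicate 3). Acta1, skeletal alpha-actin, had 11.3, 17.4 and 617 CPM in AngII libraries and 11.5, 686 and 678 CPM in Ctrl libraries. Its log2 difference was -1.09 ± 1.77 (edgeR adjusted p = 0.957). It was -5.00 without AngII replicate 3, -1.66 without Ctrl replicate 1 and 0.09 ± 0.24 with the prefix covariate. Ankrd1, a stretch-responsive protein of the sarcomere, had 65.2, 119 and 818 CPM in AngII libraries and 149.6, 1329 and 1374 CPM in Ctrl libraries (log2 difference -1.51 ± 1.15, and -3.37 without AngII replicate 3). In all 4 genes every WA library lay above every WC library, and the groups by label overlapped.

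Myh7, the beta myosin heavy chain, had 591, 869.8 and 984 CPM in AngII libraries and 859, 1346 and 1571 CPM in Ctrl libraries (log2 difference -0.63 ± 0.38). Myh6, the alpha chain of the adult mouse ventricle, had 9394, 14558 and 13055 CPM in AngII libraries and 12934, 14356 and 16348 CPM in Ctrl libraries (log2 difference -0.24 ± 0.40, edgeR adjusted p = 0.960). Both genes had overlapping groups, and with total counts as the only scaling their log2 differences were 0.03 (Myh7) and 0.41 (Myh6). Fhl1, a LIM protein of the sarcomere, had 38.2, 47.7 and 61.2 CPM in AngII libraries and 51.5, 99.9 and 105 CPM in Ctrl libraries (log2 difference -0.80 ± 0.33). Rcan1, a calcineurin target gene and inhibitor, had 18.3, 12.3 and 45.1 CPM in AngII libraries and 14.7, 59.1 and 53.8 CPM in Ctrl libraries, again high in the WA libraries (log2 difference -0.75 ± 0.71, and -1.47 without AngII replicate 3).

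**Figure D3:**
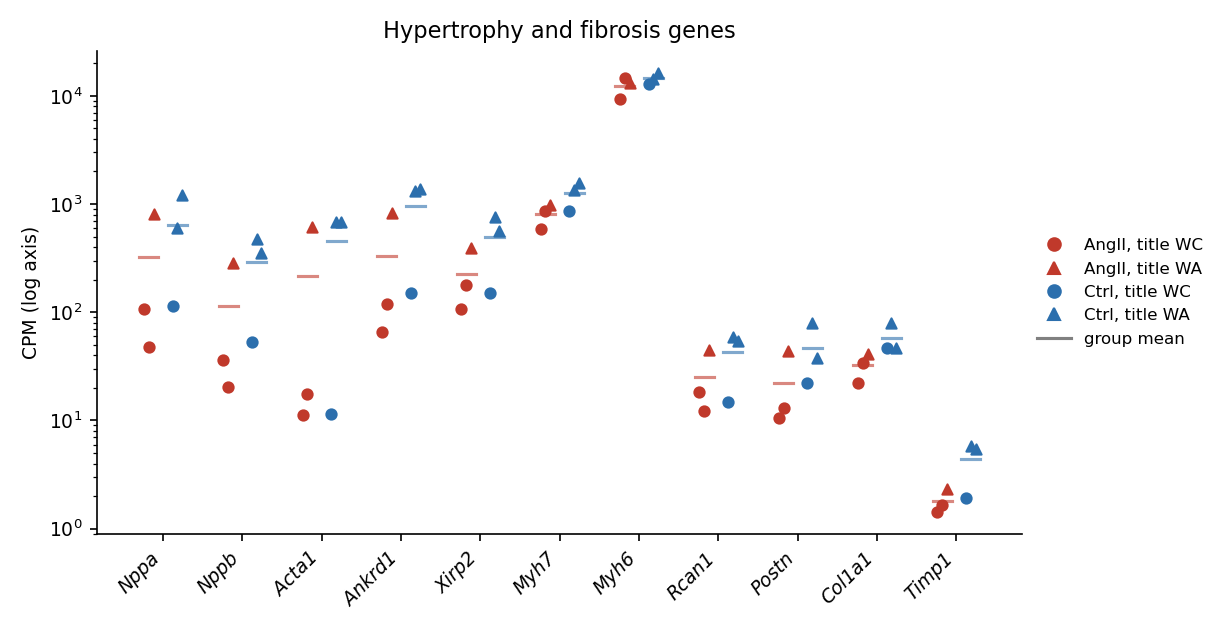
CPM of 11 hypertrophy and fibrosis genes in each library on a log axis, with colour for the label, shape for the title prefix and a line at each group mean. For Nppa, Nppb, Acta1 and Ankrd1 the WA libraries lie above the WC libraries in both groups.

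A microRNA gene lies within each of these myosin heavy chain genes, Mir208b in Myh7 and Mir208a in Myh6, and their mature products, known from mouse heart to take part in the control of myosin expression, share a seed. The mature 3p sequences are shown because Mir208b was among the genes of smallest p and both products share their seed. They are from RefSeq (GRCm38.p6, chromosome 14, minus strand), with the seed, bases 2 to 8, in capitals. They are 22 bases long and differ at 3 bases outside the seed.
mmu-miR-208b-3p: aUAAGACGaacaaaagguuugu
mmu-miR-208a-3p: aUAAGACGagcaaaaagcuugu
The counts at these loci are from poly(A) libraries and do not measure the mature microRNAs. Mir208b had 11.5, 9.34 and 9.58 CPM in AngII libraries and 6.91, 3.10 and 2.88 CPM in Ctrl libraries. Every AngII library lay above every Ctrl library (log2 difference 1.24 ± 0.35). The host genes Myh7 (-0.63 ± 0.38) and Myh6 (-0.24 ± 0.40, within its SE) had negative differences with TMM and positive ones with total counts as the only scaling, where Mir208b was at 1.86. Mir208a had 0.377, 0.624 and 0.644 CPM in AngII libraries and 0.213, 0.262 and 0.261 CPM in Ctrl libraries (log2 difference 1.16 ± 0.67). Reads of host and microRNA genes on the same strand cannot be assigned with certainty, since the counting step is not given in the sources used here.

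Josd2, which encodes the deubiquitinase named in the series title, had 44.8, 62.8 and 61.4 CPM in AngII libraries and 46.2, 50.1 and 53.9 CPM in Ctrl libraries. The groups overlapped, with a log2 difference of 0.17 ± 0.27 (edgeR adjusted p = 0.955). Atp2a2, which encodes SERCA2a, had 1699, 1098 and 2571 CPM in AngII libraries and 1223, 2495 and 3633 CPM in Ctrl libraries. The WA libraries were the high ones in both groups, and the log2 difference of -0.45 ± 0.61 (edgeR adjusted p = 0.945) was -0.02 ± 0.29 with the prefix covariate and 0.22 with total counts as the only scaling. It was -0.81 without AngII replicate 3 and -0.78 without Ctrl replicate 1. Pln, which encodes the SERCA inhibitor phospholamban, had 1393, 1199 and 1895 CPM in AngII libraries and 1418, 2695 and 3237 CPM in Ctrl libraries. Ryr2, the calcium release channel, had 469, 487 and 354 CPM in AngII libraries and 328, 439.6 and 485 CPM in Ctrl libraries (log2 difference 0.06 ± 0.37, edgeR adjusted p = 0.990). Of 23 calcium-handling genes, 8 were higher and 15 lower, with a median of -0.36, and 0 in either direction had an unadjusted p under 0.05. Of 23 genes of the sarcomere and Z-disc, 1 was higher and 22 lower with a median of -0.42. Of these, 1 lower gene had an unadjusted p under 0.05 (2.62% of all genes). Without AngII replicate 3 the calcium-handling median was -0.61 and the sarcomere median -0.76. With total counts as the only scaling these 2 medians were 0.29 and 0.23, so their sign depends on the scaling. Of 19 heat shock proteins and co-chaperones, 5 were higher and 14 lower (median -0.24). That median was -1.03 without AngII replicate 3, -0.52 without Ctrl replicate 1 and 0.042 without AngII replicate 2, and with the prefix covariate it was 0.07, with 10 genes higher and 9 lower. In mean log2 level, every WA library lay above every WC library for the heat shock list and for the sarcomere list. Hspb6, a small heat shock protein of muscle, had 100.1, 238 and 478 CPM in AngII libraries and 326, 1223 and 1145 CPM in Ctrl libraries, with a log2 difference of -1.72 ± 0.71 and overlap between the groups.

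Among enzymes of energy metabolism, all 16 genes of the tricarboxylic acid cycle had a lower fitted value in AngII hearts, with a median of -0.66 that was 0.02 with total counts as the only scaling. It was -1.06 without AngII replicate 3 and -0.24 with the prefix covariate. Within the cycle, 1 lower gene had an unadjusted p under 0.05 (2.62% of all genes). Idh3g, a subunit of isocitrate dehydrogenase, had 155, 186 and 215 CPM in AngII libraries and 234, 328 and 382 CPM in Ctrl libraries, without overlap (log2 difference -0.77 ± 0.34). Of 24 genes of fatty acid uptake and oxidation, 5 were higher and 19 lower (median -0.41). The median was -0.73 without AngII replicate 3, -0.72 without Ctrl replicate 1 and -0.02 with the prefix covariate. Of 17 tested target genes of PPAR transcription factors, 8 were higher and 9 lower (median -0.04, and above 0 without AngII replicate 2 or 3 or Ctrl replicate 2 or 3, at most 0.26). Among them, Slc22a5, which encodes the carnitine transporter, had 49.7, 38.2 and 19.1 CPM in AngII libraries and 20.8, 11.1 and 13.5 CPM in Ctrl libraries. Its groups overlapped at AngII replicate 3 and Ctrl replicate 1 (log2 difference 1.24 ± 0.36). Of 22 genes of glucose transport, glycogen and glycolysis, 2 were higher and 20 lower (median -0.37). That median was 0.002 within WC, -0.23 within WA and -0.10 with the prefix covariate. In mean log2 level, every WA library lay above every WC library for this list and for the tricarboxylic acid cycle and fatty acid lists. Pfkfb2, the cardiac regulator of glycolysis, had 128, 106 and 112 CPM in AngII libraries and 72.2, 86.2 and 65.4 CPM in Ctrl libraries (log2 difference 0.63 ± 0.25). Hk1, a hexokinase, had 50.4, 57.7 and 53.8 CPM in AngII libraries and 60.4, 86.7 and 113 CPM in Ctrl libraries (log2 difference -0.68 ± 0.27). Of 24 oxidative-stress genes, 9 were higher and 15 lower (median -0.17, and 0.036 without AngII replicate 2). Cat, which encodes catalase, had 62.3, 84.3 and 77.1 CPM in AngII libraries and 104, 275 and 231 CPM in Ctrl libraries, without overlap (log2 difference -1.45 ± 0.37). Outside that list, Maob, the mitochondrial monoamine oxidase B, had 8.64, 9.10 and 9.67 CPM in AngII libraries and 13.8, 20.0 and 25.0 CPM in Ctrl libraries, also without overlap (log2 difference -1.10 ± 0.24).

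Of 17 collagen genes, 4 were higher and 13 lower (median -0.24), and 0 had an unadjusted p under 0.05. Col1a1, which encodes the main fibrillar collagen, had 22.2, 34.1 and 41.0 CPM in AngII libraries and 47.3, 80.1 and 47.1 CPM in Ctrl libraries. Its groups did not overlap (log2 difference -0.84 ± 0.67, edgeR adjusted p = 0.911). Col3a1 had 47.1, 49.9 and 120.0 CPM in AngII libraries and 59.8, 110.3 and 65.7 CPM in Ctrl libraries, with a log2 difference of -0.12 ± 0.76 (edgeR adjusted p = 0.990) that was -0.69 without AngII replicate 3 and 0.21 without Ctrl replicate 2. Of 26 matricellular and crosslinking genes, 7 were higher and 19 lower (median -0.45), 3 with every AngII library below every Ctrl library (5.74% of all genes). That median was -0.62 without Ctrl replicate 1 and -0.14 with the prefix covariate. Postn, periostin of activated fibroblasts, had 10.6, 13.0 and 43.6 CPM in AngII libraries and 22.1, 79.5 and 38.1 CPM in Ctrl libraries (log2 difference -1.06 ± 0.79, and -1.98 without AngII replicate 3). Of 14 fibroblast markers, 3 were higher and 11 lower (median -0.16), with -0.38 within WC and 0.18 within WA. Bgn, which encodes the proteoglycan biglycan, had 100.3, 166 and 174 CPM in AngII libraries and 196, 471 and 319 CPM in Ctrl libraries, without overlap (log2 difference -1.16 ± 0.66).

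Among the ligands of the TGF-beta family, Tgfb2 had 4.40, 6.91 and 6.70 CPM in AngII libraries and 8.42, 14.6 and 15.0 CPM in Ctrl libraries. Every AngII library lay below every Ctrl library (log2 difference -1.08 ± 0.27). Tgfb1 had 12.6, 20.5 and 16.1 CPM in AngII libraries and 21.9, 26.2 and 24.1 CPM in Ctrl libraries, without overlap. Id1, a target gene of bone morphogenetic protein signalling, had 72.5, 55.6 and 72.5 CPM in AngII libraries and 51.4, 42.7 and 42.6 CPM in Ctrl libraries, with every AngII library above every Ctrl library. Of the 22 genes of this pathway, 10 were higher and 12 lower (median -0.05). In 1 of them every AngII library lay above every Ctrl library (6.44% of all genes) and in 3 below (5.74% of all genes).

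Within the renin-angiotensin system, 14 of 18 genes were tested, of which 7 were higher and 7 lower (median -0.02). Agtr1a, which encodes the AT1a receptor, had 0.860, 20.2 and 10.1 CPM in AngII libraries and 22.2, 17.6 and 20.4 CPM in Ctrl libraries. AngII replicate 1 was the low library, and the groups overlapped (log2 difference -0.95 ± 0.74, edgeR adjusted p = 0.907). Ace, angiotensin-converting enzyme, had 28.2, 33.0 and 34.1 CPM in AngII libraries and 41.0, 42.6 and 47.4 CPM in Ctrl libraries, without overlap (log2 difference -0.46 ± 0.40, edgeR adjusted p = 0.915). Of 20 tested genes for endothelin and other vasoactive signals, 12 were higher and 8 lower (median 0.09). Edn1, which encodes the vasoconstrictor endothelin 1, had 8.44, 5.20 and 3.90 CPM in AngII libraries and 6.77, 2.79 and 2.15 CPM in Ctrl libraries, with overlap.

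Among regulators of hypertrophic signalling, 26 genes were tested, with 8 higher and 18 lower (median -0.10). Gata4, a cardiac transcription factor, had 36.3, 40.4 and 42.9 CPM in AngII libraries and 46.0, 71.1 and 83.2 CPM in Ctrl libraries (log2 difference -0.74 ± 0.28). Hdac5, a class IIa histone deacetylase that represses such genes, had 83.8, 70.7 and 72.4 CPM in AngII libraries and 55.8, 40.5 and 56.7 CPM in Ctrl libraries (log2 difference 0.57 ± 0.22). Nfatc4, a transcription factor activated by calcineurin, had 9.30, 7.82 and 8.83 CPM in AngII libraries and 7.12, 5.46 and 4.46 CPM in Ctrl libraries. The groups did not overlap in any of these 3 genes, which were the only such genes of the 26. In 2 every AngII library lay above every Ctrl library (6.44% of all genes) and in 1 below (5.74% of all genes).

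Markers of endothelial cells were mostly higher in AngII hearts. Of 16, 13 were higher and 3 lower, with a median of 0.30, 3 with an unadjusted p under 0.05 (2.63% of all genes) and 4 with every AngII library above every Ctrl library (6.44% of all genes). Within WC the median was 0.10 and within WA 0.41. Relative to the mean of the 6 libraries, the mean log2 level was 0.27, 0.23 and 0.004 in AngII libraries. In Ctrl libraries it was 0.13, -0.40 and -0.22. The groups overlapped at AngII replicate 3 and Ctrl replicate 1, and every WC library lay above every WA library. Cldn5, which encodes the tight junction protein claudin 5, had 58.1, 29.6 and 28.4 CPM in AngII libraries and 17.0, 9.83 and 11.3 CPM in Ctrl libraries, with a log2 difference of 1.60 ± 0.45, and of 1.40 ± 0.24 with the prefix covariate (edgeR adjusted p = 0.446). Esam, an adhesion molecule of endothelial junctions, had 109.6, 74.5 and 87.9 CPM in AngII libraries and 73.8, 44.5 and 58.6 CPM in Ctrl libraries, also without overlap (log2 difference 0.62 ± 0.26). The other 2 markers without overlap were Egfl7 and Flt1. The summed level of the 12 ventricular muscle markers was 25123, 28674 and 40540 CPM in AngII libraries and 29782, 40212 and 51509 CPM in Ctrl libraries. In this sum every WA library lay above every WC library, and its part in the endothelial values was not tested.

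Markers of blood cells differed mainly between libraries. All 11 neutrophil markers tested were higher in AngII hearts, with a median of 2.17 that was 0.12 without AngII replicate 1, and the within-prefix values were 1.27 in WC and -0.60 in WA. S100a8, a calcium-binding protein of neutrophils, had 51.6, 5.84 and 1.46 CPM in AngII libraries and 7.19, 1.62 and 1.86 CPM in Ctrl libraries. Haemoglobin genes took 0.986%, 0.345% and 0.0144% of counts in AngII libraries and 0.603%, 0.0329% and 0.0364% in Ctrl libraries, high in the WC libraries of both groups (difference of means 0.225 percentage points, two-sided exact permutation p = 0.7, and 0.7 after adjustment). Of 20 macrophage markers, 6 were higher and 14 lower (median -0.10, but 0.026 without AngII replicate 3 and 0.035 without Ctrl replicate 1). Cd68, a lysosomal protein of macrophages, had 3.73, 5.01 and 3.80 CPM in AngII libraries and 7.21, 6.18 and 6.03 CPM in Ctrl libraries, without overlap.

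Of 16 genes of antigen presentation, 8 were higher and 8 lower, 3 with every AngII library above (6.44% of all genes) and 3 with every AngII library below every Ctrl library (5.74% of all genes). Their median was -0.14, with -0.56 within WC and 0.34 within WA. Cd74, the invariant chain of MHC class II, had 23.2, 55.4 and 44.7 CPM in AngII libraries and 84.8, 57.3 and 79.6 CPM in Ctrl libraries (log2 difference -0.85 ± 0.35). H2-Ab1, a class II beta chain, had 8.56, 20.3 and 17.7 CPM in AngII libraries and 32.1, 24.6 and 25.6 CPM in Ctrl libraries. In both, every AngII library lay below every Ctrl library. H2-T23, a nonclassical class I molecule, had 53.6, 41.3 and 38.0 CPM in AngII libraries and 37.5, 21.7 and 23.7 CPM in Ctrl libraries, with every AngII library above (log2 difference 0.68 ± 0.26). Psmb9, a subunit of the immunoproteasome, lay between 13.0 and 16.7 CPM in AngII libraries and between 5.72 and 12.9 CPM in Ctrl libraries. Of 24 interferon-stimulated genes, 18 were higher and 6 lower (median 0.16), with -0.20 within WC and 0.32 within WA. Mx2, of the family of interferon-induced Mx GTPases, is a polymorphic pseudogene in the annotation used for neighbours. It had 4.38, 8.01 and 5.85 CPM in AngII libraries and 3.12, 3.39 and 2.31 CPM in Ctrl libraries (log2 difference 1.05 ± 0.31).

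Of 29 cytosolic ribosomal protein genes, 24 were higher and 5 lower, with a median of 0.17, and 4 higher genes had an unadjusted p under 0.05 (2.63% of all genes). The median was 0.06 within WC and 0.28 within WA. Their summed level was 5528.5, 3702.5 and 5412.6 CPM in AngII libraries and 4394.9, 4338.2 and 4512.5 CPM in Ctrl libraries. AngII replicate 2 was thus the lowest library, and the groups overlapped. Of 19 clock genes, 6 were higher and 13 lower (median -0.17). In 1 of them every AngII library lay above every Ctrl library (6.44% of all genes) and in 3 below (5.74% of all genes). Arntl, which encodes the clock activator BMAL1, had 13.3, 4.15 and 3.87 CPM in AngII libraries and 2.83, 1.91 and 2.94 CPM in Ctrl libraries. Bhlhe40, a clock repressor, had 13.5, 20.6 and 23.3 CPM in AngII libraries and 29.3, 39.3 and 38.0 CPM in Ctrl libraries. The groups did not overlap in either gene, and the time of day of tissue collection is not given in the labels.

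**Figure D4:**
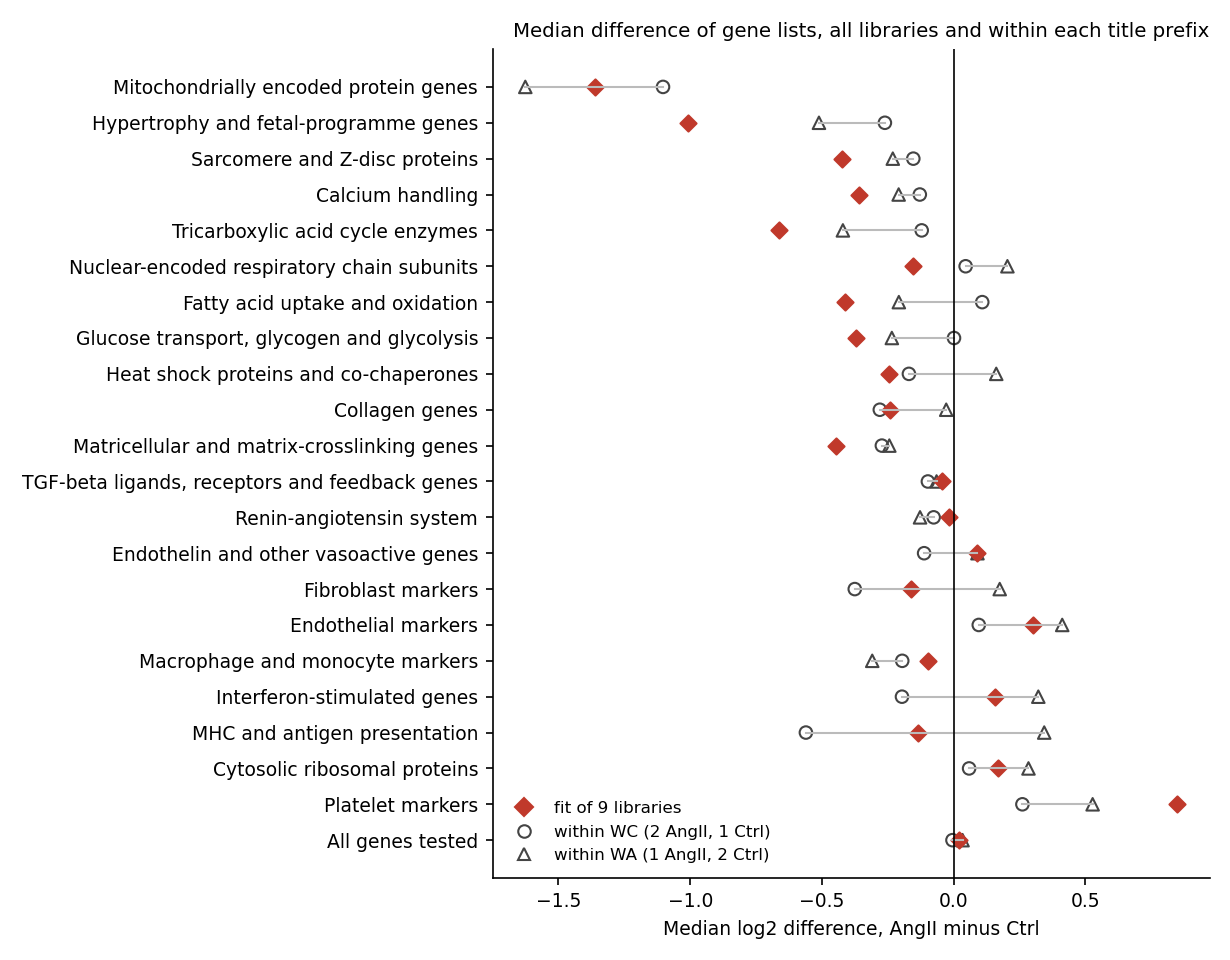
Median log2 difference, AngII minus Ctrl, of 21 gene lists and of all genes tested, in the fit of 9 libraries (diamonds) and within the WC (circles) and WA (triangles) titles. Mitochondrially encoded genes lie at -1.36, -1.10 and -1.63, and hypertrophy genes at -1.01, -0.26 and -0.51.

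The genes with the smallest p and no overlap between the groups were chosen by that rule, so their separation is a description. Among those higher in AngII hearts, Thap3, a protein with a THAP DNA-binding domain, had a log2 difference of 0.94 ± 0.24. Washc4, a subunit of the WASH complex of endosomes, had 15.6, 13.8 and 15.2 CPM in AngII libraries and 8.56, 6.94 and 10.5 CPM in Ctrl libraries (log2 difference 0.78 ± 0.20). Lemd3, an inner nuclear membrane protein that restrains SMAD signalling, had 17.2, 11.5 and 10.7 CPM in AngII libraries and 8.11, 7.16 and 7.00 CPM in Ctrl libraries. Chfr, a mitotic checkpoint ubiquitin ligase, and Dgkq, a diacylglycerol kinase, had log2 differences of 0.69 ± 0.19 and 0.87 ± 0.24. The other higher genes were Tada1 (log2 difference 0.97 ± 0.27), Ccdc157 (0.80 ± 0.23), Mir22hg (0.78 ± 0.22) and Zfp740 (0.87 ± 0.25), beside Cldn5, Mir208b and Mx2 above.

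Among those lower in AngII hearts, Tmem69 had 5.24, 6.18 and 5.45 CPM in AngII libraries and 8.72, 13.6 and 15.3 CPM in Ctrl libraries (log2 difference -1.16 ± 0.24). Ost4, a small subunit of oligosaccharyltransferase, which attaches sugars to proteins, had 20.8, 24.3 and 26.6 CPM in AngII libraries and 37.6, 49.5 and 45.5 CPM in Ctrl libraries (log2 difference -0.89 ± 0.21). Hmga1, an architectural chromatin protein, had 10.4, 17.1 and 12.8 CPM in AngII libraries and 20.6, 32.3 and 35.4 CPM in Ctrl libraries (log2 difference -1.13 ± 0.26). The others were Zfp385b (log2 difference -1.29 ± 0.29), Fam122a (-1.02 ± 0.26), Dglucy (-0.89 ± 0.22) and Sox12 (4.39, 4.70 and 4.94 CPM in AngII libraries and 7.81, 9.64 and 10.6 CPM in Ctrl libraries), beside Cox20, Maob, mt-Tp, Tgfb2 and Dpm1. Dpm1, a subunit of dolichol-phosphate mannose synthase, had 6.03, 8.46 and 6.82 CPM in AngII libraries and 14.6, 20.8 and 33.5 CPM in Ctrl libraries. The overlapping model Gm20716 on the same strand had 52.5, 20.2 and 52.3 CPM in AngII libraries and 0, 31.3 and 0 CPM in Ctrl libraries. The sum of both did not separate the groups, at 58.5, 28.7 and 59.1 CPM in AngII libraries and 14.6, 52.1 and 33.5 CPM in Ctrl libraries, so the Dpm1 value is uncertain. Of 49 genes (those with the smallest p in either fit and the 20 index genes), 27 overlap another counted gene.

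**Figure D5:**
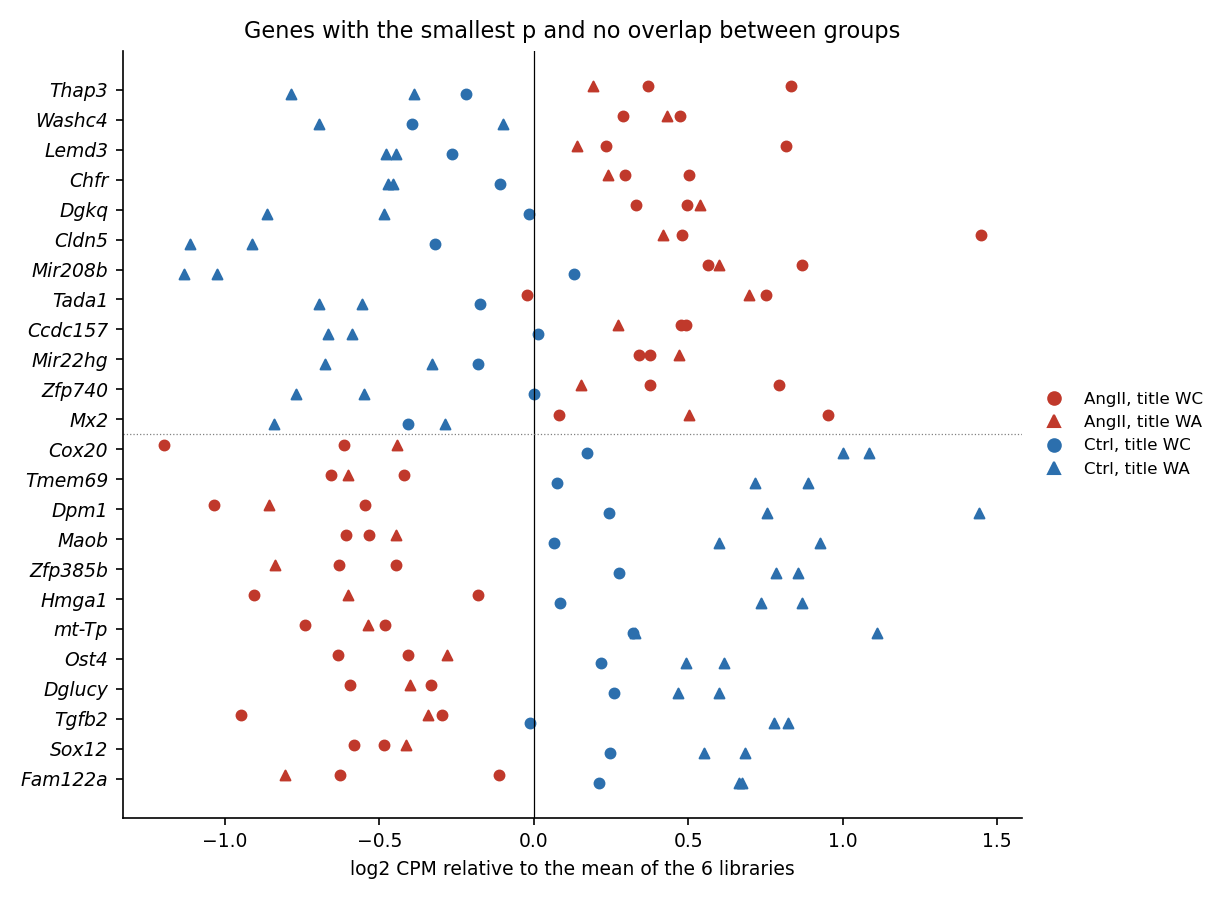
log2 CPM of the 12 higher and 12 lower genes with the smallest p and no overlap between groups, relative to the mean of the 6 libraries, with colour for the label and shape for the title prefix. AngII points lie to the right of Ctrl points above the dotted line and to the left below it, by the rule that chose the genes.

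With the prefix covariate the 6 higher and 6 lower genes with the smallest p included 4 not yet described. Sdr39u1, a short-chain dehydrogenase family member, had 4.12, 3.40 and 9.51 CPM in AngII libraries and 7.80, 19.2 and 21.1 CPM in Ctrl libraries, with a log2 difference of -1.06 ± 0.18 (edgeR adjusted p = 0.421). Its groups overlapped, and its differences were -1.05 within WC and -1.08 within WA. Lrrc45, a centrosomal linker protein, had 26.7, 26.1 and 19.4 CPM in AngII libraries and 18.0, 10.4 and 9.07 CPM in Ctrl libraries. Slc12a9, of the cation-chloride cotransporter family, and Dffb, the nuclease of apoptotic DNA fragmentation, had log2 differences of 0.86 ± 0.19 and 0.95 ± 0.22 with the covariate (edgeR adjusted p = 0.512 for both).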

How the data were processed

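The deposited table held whole-number counts per gene, 1 column per library, per the file headers, not scaled for depth or length. Per the labels' protocols, Trizol RNA was poly(A)-selected and sequenced as paired-end libraries. Per the submitters' processing notes, the tools were HISAT2 2.0, StringTie 1.3.0 and Bowtie 0.12.2, and the build was mm8. The part each tool played, the gene annotation, the counting step and any strand setting are not stated. Symbols matched 55141 of 55401 identifiers, and the other 260 kept the identifier. Gene neighbours and overlaps came from an annotation of another build (GENCODE M21, GRCm38), so no gene coordinates are given. Replicate numbers follow sample order and pair nothing. No 2 libraries matched within counting noise (chi-square divided by degrees of freedom was at least 59.6 for every pair).

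The test of the counts was that of edgeR 4.0.16 (R 4.3.3; TMM, filterByExpr, quasi-likelihood F test with robust dispersion, all 9 libraries in 1 fit, Benjamini-Hochberg adjustment over all genes tested). Standard errors are the fitted difference over the square root of F and add nothing to the test. CPM used TMM library sizes, and a prior count of 2 was added before log2 CPM entered the principal components. Mitochondrial and haemoglobin shares of counts were compared by exact permutation (two-sided). The 48 gene lists were described by counts and medians, without a list test. Alternatives were DESeq2 1.42.0, limma-voom (limma 3.58.1), other scalings and filters, the 6 libraries alone, the title prefix as a covariate, mitochondrial, haemoglobin and Nppa genes left out, and each library left out in turn. The prefix covariate without single libraries, the interaction of label and prefix, and the addition of nuclear copies were chosen after the data were seen. Of these fits only the edgeR fit of 9 libraries was run on simulated counts with known changes. Its pass mark for recovered genes was set for a large change at a dispersion below that estimated here. It therefore does not show which changes the test could find in these libraries.

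The groups, lists and rules were chosen with earlier results of these data known. Genes were named by a rule: 20 index genes, the 12 higher and 12 lower genes of smallest p with mean log2 CPM of at least 1, an established symbol and no overlap between groups, 6 and 6 by p with the prefix covariate, and up to 4 members of each list by p. Only part of these is given. Pseudogene copies, overlap partners and marker checks fall outside it and were chosen after their values were seen.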

Additional observations from a re-analysis of the deposited data

Results flagged for a closer look

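In 12 genes the AngII minus Ctrl difference itself differed between the WC and WA libraries, by an interaction of label and prefix in edgeR that was added after the data were seen and adjusted over 18111 genes. A total of 540 genes had an unadjusted interaction p under 0.05. Of the 12, 8 overlap another counted gene. With 1 library in an arm of each prefix, the interaction rests on single libraries, and the part of the overlaps was not tested.

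Zfp91 (adjusted p = 0.00112) had 46.7, 51.2 and 67.7 CPM in AngII libraries and 0.106, 62.2 and 75.3 CPM in Ctrl libraries. Heyl (adjusted p = 0.00594), a Notch target, had 18.3, 26.4 and 25.6 CPM in AngII libraries and 0.354, 20.9 and 22.9 CPM in Ctrl libraries. Lpgat1 (adjusted p = 0.0127) had 35.7, 33.0 and 41.2 CPM in AngII libraries and 2.60, 44.2 and 56.2 CPM in Ctrl libraries. E130102H24Rik (adjusted p = 0.0155) had 4.26, 6.14 and 2.93 CPM in AngII libraries and 0, 2.65 and 3.25 CPM in Ctrl libraries. In these 4 genes Ctrl replicate 1 was the low library.

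Twsg1 (adjusted p = 0.00185) had 20.4, 27.0 and 0.334 CPM in AngII libraries and 29.5, 55.5 and 49.8 CPM in Ctrl libraries. Zfp628 (adjusted p = 0.00594) had 4.25, 4.41 and 0 CPM in AngII libraries and 4.38, 4.91 and 4.79 CPM in Ctrl libraries. Ctdspl (adjusted p = 0.0435) had 7.68, 9.77 and 0.408 CPM in AngII libraries and 10.4, 8.61 and 7.82 CPM in Ctrl libraries. Here AngII replicate 3 was the low library. Slc51a (adjusted p = 0.0481) had 0.330, 0.193 and 6.77 CPM in AngII libraries and 1.12, 0.501 and 0.469 CPM in Ctrl libraries, high in AngII replicate 3.

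In 4 genes an overlapping gene held counts where the first had few. Gm45140 (adjusted p = 0.00594) had 1111, 1104 and 16 counts in AngII libraries and 738, 436 and 815 in Ctrl libraries, and its partner Rab43 had 24, 6 and 918 in AngII libraries and 21, 3 and 21 in Ctrl libraries. Cpne1 (adjusted p = 0.0481) had 1971, 1670 and 128 counts in AngII libraries and 1154, 648 and 680 in Ctrl libraries, and Gm28036 had 0, 45 and 1704 in AngII libraries and 1, 0 and 342 in Ctrl libraries. Usp50 (adjusted p = 0.0118) had 550, 174 and 0 counts in AngII libraries and 0, 99 and 86 in Ctrl libraries, and Gm10774 (adjusted p = 0.0499) had 1, 1 and 203 in AngII libraries and 87, 82 and 72 in Ctrl libraries.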

How the results depend on the processing

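No paired analysis was possible because the labels give the libraries no shared replicate numbers. For single genes, 639 of 654 recomputed log2 differences kept their sign and 15 did not. The genes recomputed were the index genes and the genes chosen for smallest p and no overlap between the groups. That choice by itself makes a change of sign unlikely, and all 15 changes fell in index genes. The tally therefore does not show how stable the sign is for genes in general. For medians of gene lists, 621 of 715 kept their sign and 94 did not, and with the alternatives added after the data were seen 251 of 334 kept it and 83 did not. Scaled by library size alone, the log2 differences of Atp2a2, Myh6, Myh7 and Col3a1 were 0.22, 0.41, 0.030 and 0.57. With the title prefix as covariate those of Acta1, Col3a1 and Hba-a1 were 0.093, 0.081 and -1.38. Leaving out 1 library at a time, Col3a1 ranged from -0.69 to 0.21, Hba-a1 from -0.89 to 2.92, and the haemoglobin share difference from -0.044 to 0.442. Ryr2 ranged from -0.081 without Ctrl replicate 1 to 0.20 without AngII replicate 3, with -0.02 without AngII replicate 2. The cause was not tested. The number of called genes was 0 in the fit of 9 libraries and 2 with the DESeq2 Wald test (Olfr77 and Gm16701). It lay between 0 and 1 without 1 library, and the 3 single calls were Lin52, Gm10774 and Cyren. With the prefix covariate it lay between 0 and 35 without 1 library, from 35 without AngII replicate 2, 11 without Ctrl replicate 1, 8 without AngII replicate 1 and 4 without AngII replicate 3 to 0 without Ctrl replicates 2 or 3. With mitochondrial, haemoglobin and Nppa genes left out, those genes have no value.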

Other observations

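Some genes were at or near 0 in whole groups or single libraries. Olfr77, an olfactory receptor gene that passed the DESeq2 test, had 110, 93 and 74 counts in AngII libraries and 0, 0 and 0 in Ctrl libraries. The model Gm7808, which lies within it on the opposite strand, had 0, 0 and 0 counts in AngII libraries and 77, 64 and 41 in Ctrl libraries. Their sum lay between 0.916 and 1.38 CPM in AngII libraries and between 0.712 and 1.53 CPM in Ctrl libraries, so the groups overlapped. Without a stated strand setting, reads of the pair cannot be told apart.

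Of 9133 genes with at least 5 CPM in 5 of the 6 libraries, 9 stood below 5% of the lowest of these in the remaining library. They were Zbtb22, Vkorc1l1 and Fsd1l in AngII replicate 1, Gm45140 and Twsg1 in AngII replicate 3, Zfp91, Heyl and Zc3h11a in Ctrl replicate 1, and Gm28048 in Ctrl replicate 2. Of the 9, 6 overlap another counted gene.

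With mitochondrial genes and their 7 nuclear copies left out, long intergenic RNA genes held 1.58%, 1.38% and 1.02% of counts in AngII libraries and 1.18%, 0.633% and 0.679% in Ctrl libraries. AngII replicate 3 lay below Ctrl replicate 1, so the groups overlapped. With the copies kept in the total the shares were 1.33%, 1.10% and 0.865% in AngII libraries and 0.838%, 0.427% and 0.526% in Ctrl libraries, without overlap. Lin52, a subunit of the DREAM complex of cell cycle control, had 0.212, 6.79 and 0.186 CPM in AngII libraries and 6.59, 7.32 and 9.15 CPM in Ctrl libraries, low in AngII replicates 1 and 3. Cyren, a regulator of DNA end joining, had 26.5, 33.5 and 27.3 CPM in AngII libraries and 17.6, 3.86 and 3.65 CPM in Ctrl libraries, without overlap. These genes and shares were chosen after their values were seen.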
